A study of Homo sapiens with 6 samples.

Results

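Transcripts of the receptor tyrosine kinases MET, EGFR, ERBB2 and ERBB3, of the MET ligand HGF and of the ERBB2-binding protein erbin were compared between HCT116 WT and HCT116 p21-/- cells. They were selected by symbol, as every gene of the panel called MET, HGF or EGFR or beginning with ERBB, which gave 6 of the 770 genes. HCT116 is a human colorectal carcinoma line, and the p21-/- line is a knockout of CDKN1A, which encodes the cell cycle inhibitor p21. The groups were 3 WT samples and 3 p21-/- samples, labelled as biological replicates, of untreated cells harvested before confluence. The labels speak of p21-/- clones without saying how many gave the 3 samples, and the medium of the p21-/- cells is DMEM in the study's methods but RPMI in the sample labels. Clone, medium and loss of p21 cannot be told apart where they differ between the lines.

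MET binds hepatocyte growth factor (HGF) and drives the scattering and invasion of epithelial cells. EGFR, ERBB2 and ERBB3 belong to a family whose members pair with each other on ligand binding: EGFR binds amphiregulin, epiregulin and EGF, ERBB3 binds neuregulins but has a weak kinase, and ERBB2 has no known ligand and serves as the preferred partner of the others. In colorectal cancer, EGFR is the target of therapeutic antibodies, and MET signalling is known as a way around them.

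The transcripts were measured on the NanoString PanCancer Progression Panel, in which a probe pair captures each RNA and barcodes are counted without amplification. The deposited values are normalized counts. Below a floor of 25.7 to 34.9, set in each sample at 2 SD over the mean of its negative control probes, values were raised to that floor, so a value at the floor is an upper limit. Values above the floor corresponded to totals of 867421 to 1335467 barcodes per sample. Values of a line are listed in the order of replicates 1, 2 and 3. CDKN1A had 4133, 5659 and 4312 normalized counts in WT against 459.6, 409 and 388 in p21-/- cells, 11.1-fold lower but still above the floor in all 3 samples. Whether its probe lies in the deleted part is not given in the sources used here. Differences between the lines were tested with limma on log2(value + 1) over all 770 genes, with Benjamini-Hochberg adjustment, and fold changes are on that scale, which understates changes near the floor. On the panel, 47.8% of genes had an adjusted p below 0.05, 21.8% as higher and 26% as lower in p21-/- cells, and 52.2% had no overlap between the lines. All levels are relative to the authors' normalization, and fewer cells with a transcript cannot be told apart from less of it per cell.

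All 9 measured epithelial markers were above the floor in all 6 samples, and their summed level was 31488 to 35819 normalized counts over the WT samples and 17068 to 17778 in p21-/- samples. CDH1, CLDN7, ESRP1, CLDN4 and KRT19 fell, with log2 fold changes of -3.23, -2.17, -1.79, -1.73 and -0.52 and adjusted p-values of at most 0.000213. KRT7, CLDN3, EPCAM and MUC1 had log2 fold changes of 0.33, 0.25, 0.22 and 0.11. These 4 turned negative with scaling to housekeeping candidates. EPCAM had an adjusted p of 0.0444 in limma, but between 0.0705 and 0.223 without WT replicate 2 or without p21-/- replicate 1, 2 or 3. KRT7 and CLDN3 did not pass with the authors' scaling, and KRT7 did without WT replicate 3 (log2 fold change 0.53, adjusted p = 0.00798). Both measured leukocyte markers, PTPRC and ITGAM, were at the floor in all 6 samples, as were 4 of 5 endothelial and 3 of 9 fibroblast markers. The summed level above the floor was 193 to 241 normalized counts in WT and 144 to 207 in p21-/- samples for the fibroblast list, and 0 in WT and 0 to 41.0 in p21-/- samples for the endothelial list. The part of these marker differences in the receptor results was not tested.

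MET fell the most of the 4 selected receptors. It had 5973, 6368 and 6953 normalized counts in WT against 2215, 2301 and 2369.5 in p21-/- cells. The lowest WT sample was far above the highest p21-/- sample. The log2 fold change was -1.48 (SE 0.0846, limma adjusted p = 3.86e-10), a 2.80-fold lower level. Among 446 genes measured over the floor in every sample, 44 (9.87%) had a more negative log2 fold change than MET. These values rested on 2053 to 5946 barcodes per sample.

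EGFR also fell, by a smaller amount. Its level was 1807, 2083 and 2118 normalized counts in WT against 1101.5, 1159.6 and 1163 in p21-/- cells. The 3 p21-/- samples lay within a narrow range (SD 34.5, n = 3) below all WT samples (SD 170.4, n = 3). A narrower spread of the p21-/- samples was general, with a median SD of log2 values over 446 genes of 0.0634, against 0.16 in WT. The log2 fold change of EGFR was -0.81 (SE 0.0927, limma adjusted p = 1.72e-06), a 1.75-fold lower level.

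ERBB3, the neuregulin receptor, had the least precise change of the 4 receptors. It had 277, 336 and 359 normalized counts in WT against 219, 232 and 203 in p21-/- cells. The lines did not overlap, but WT replicate 1 was close to p21-/- replicate 2. With 184 barcodes in WT replicate 1 and 255 in p21-/- replicate 2, the exact 95% Poisson intervals, which cover counting error only, were 239 to 320 and 204 to 262 normalized counts. The log2 fold change over all samples was -0.56 (SE 0.147, limma adjusted p = 0.00402), a 1.48-fold lower level. With quantile normalization it was -0.20 and did not pass (adjusted p = 0.101), and with scaling to housekeeping candidates it was -0.95.

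ERBB2 was the receptor for which no difference was found with the authors' normalization, and its direction changed with the scaling. Its values were 455, 474 and 501 normalized counts in WT against 441, 497 and 465 in p21-/- cells, and the lines overlapped. The log2 fold change was -0.03 (SE 0.115, limma adjusted p = 0.851), with a 95% confidence interval from -0.27 to 0.22. It was -0.41 with scaling to housekeeping candidates (adjusted p = 0.00374) and 0.27 with quantile normalization (adjusted p = 0.00933).

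ERBB2IP, now named ERBIN, encodes erbin, a scaffold protein of the basolateral membrane that binds the tail of ERBB2. It fell, from 5132, 6469 and 5704 normalized counts in WT to 2854.5, 2808 and 2963 in p21-/- cells. As was general on the panel, the WT samples varied more among themselves (SD 671, n = 3) than the p21-/- samples (SD 79.7, n = 3). The lines did not overlap. The log2 fold change was -0.998 (SE 0.0919, limma adjusted p = 1.5e-07), a 2.00-fold lower level.

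HGF, the ligand of MET, was at the floor in all 6 samples, at 29.8, 34.9 and 33.8 in WT against 33.8, 25.7 and 31.4 in p21-/- cells. These values are the background limits of the samples and not levels of HGF, so no fold change is given. In all, 4 of the 6 genes passed the test as lower in p21-/- cells and none as higher. For comparison, 26% of all genes of the panel were lower.

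**Figure D1:**
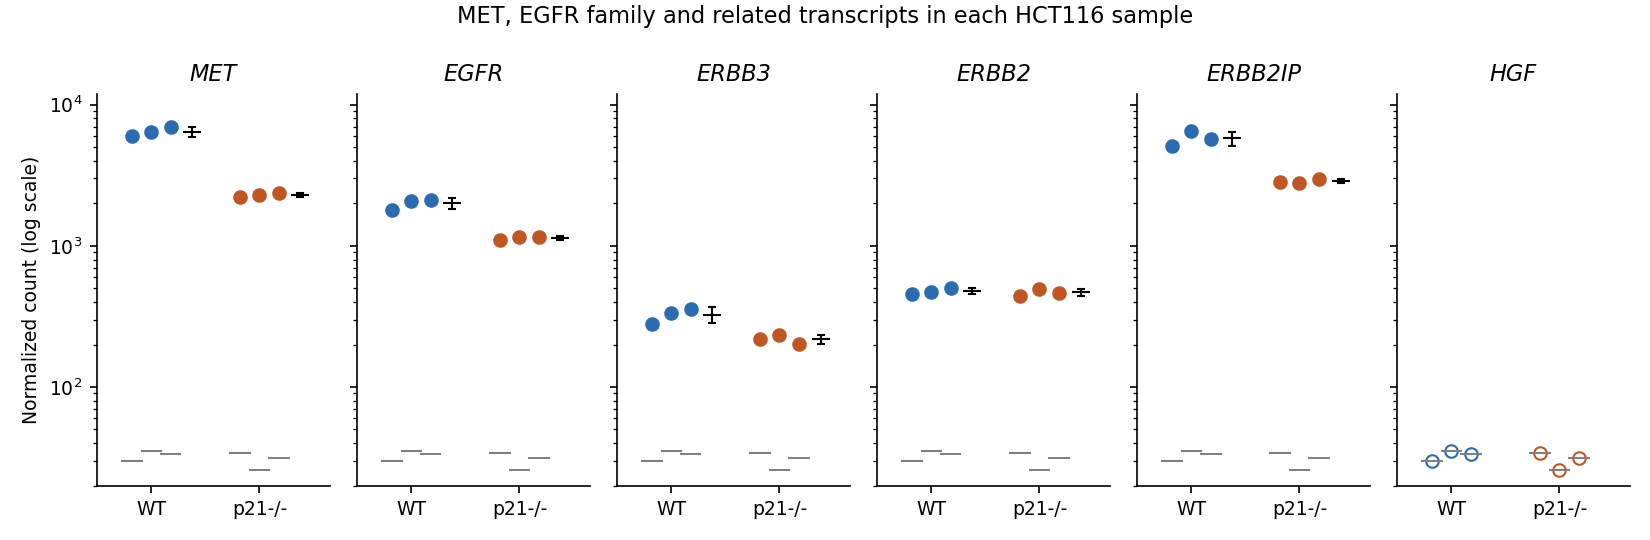
Normalized counts (log axis) of the 6 transcripts in each WT (blue) and p21-/- (orange) sample, left to right replicates 1 to 3, with the mean and SD (n = 3) beside them in black and the floor of each sample as a grey bar. MET, EGFR, ERBB3 and ERBB2IP lie lower in every p21-/- sample, ERBB2 overlaps at 441 to 501, and the open circles of HGF are floor values.

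The size of each change depended on how the samples were scaled to each other. Relative to the authors' normalization, the median log2 fold change of the 446 genes moved by 0.213 with median scaling, by 0.176 with quantile normalization, by 0.106 with trimmed means of M values (TMM) and by -0.385 with scaling to 30 housekeeping candidates. MET then ranged from -1.87 to -1.27, ERBB2IP from -1.38 to -0.78 and EGFR from -1.19 to -0.59, and all of them passed under each scaling. The values of ERBB3 and ERBB2 under the other scalings spread from -0.95 to -0.20 and from -0.41 to 0.27. Linear scaling shifts a gene and the median gene alike, so a value relative to the median gene could move only with quantile normalization. There it went from 0.02 to 0.14 for ERBB2, from -0.51 to -0.33 for ERBB3 and from -1.43 to -1.50 for MET. In the whole panel, 45.7% of calls were rises as deposited, 59.8% with median scaling, 58% with quantile normalization and 15.5% with the housekeeping candidates, or 21.1% there without the 167 genes at the floor in all samples, whose floors that scaling moved together into lower calls.

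**Figure D2:**
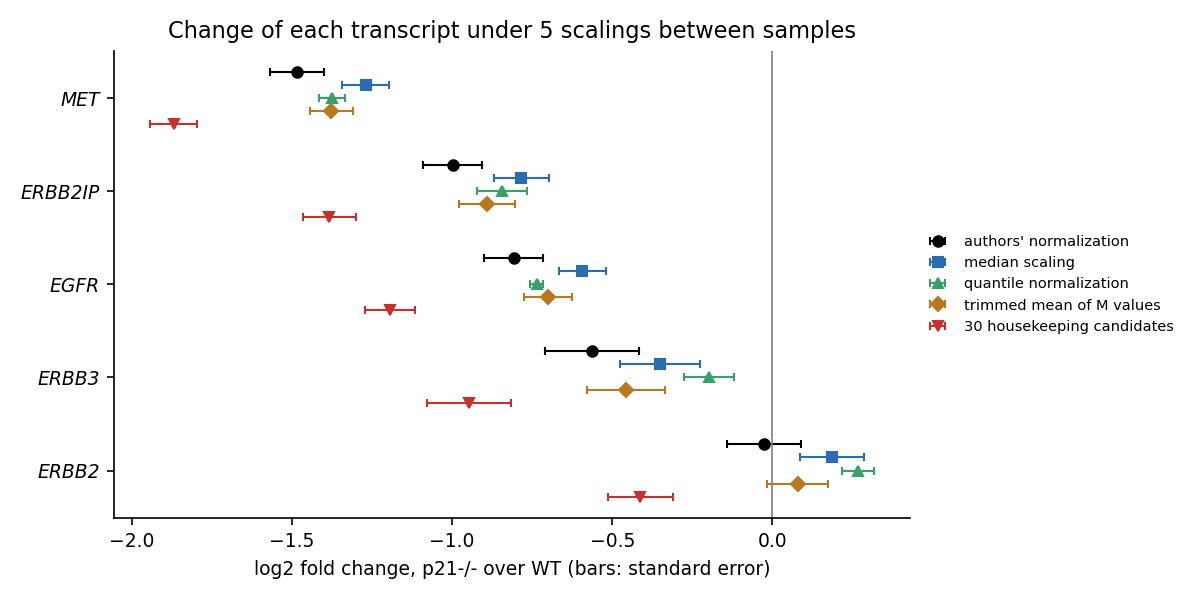
Log2 fold change of each transcript, p21-/- over WT, with its standard error, under the authors' normalization and 4 other scalings of the same 6 samples. The points of MET, ERBB2IP and EGFR lie to the left of 0 under each scaling, those of ERBB3 do too with -0.20 as the nearest, and those of ERBB2 lie on both sides of 0.

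The ratio of a pair of receptors within a sample does not depend on linear scaling between samples, so it shows whether the receptors changed unequally. It is not a ratio of molecule numbers, since each transcript has its own probe. The MET over ERBB2 ratio was 13.1, 13.4 and 13.9 in WT against 5.02, 4.63 and 5.09 in p21-/- cells, a 2.75-fold lower ratio. The MET over EGFR ratio was 3.31, 3.06 and 3.28 in WT against 2.01, 1.98 and 2.04 in p21-/- cells, a 1.60-fold lower ratio. For both ratios every p21-/- sample lay below every WT sample. The EGFR over ERBB2 ratio was 1.72-fold lower and the MET over ERBB3 ratio 1.89-fold lower in p21-/- cells, and the ERBB2 over ERBB3 ratio was 1.45-fold higher. The smallest difference was that of EGFR over ERBB3, at 6.52, 6.20 and 5.90 in WT against 5.03, 5.00 and 5.74 in p21-/- cells. No ratio of the 6 pairs overlapped between the lines. Each gave a two-sided exact permutation p of 0.1, which is the smallest that 3 samples against 3 allow, and 0.1 after Benjamini-Hochberg adjustment over the 6 pairs. By this test none of the pairs could pass 0.05.

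**Figure D3:**
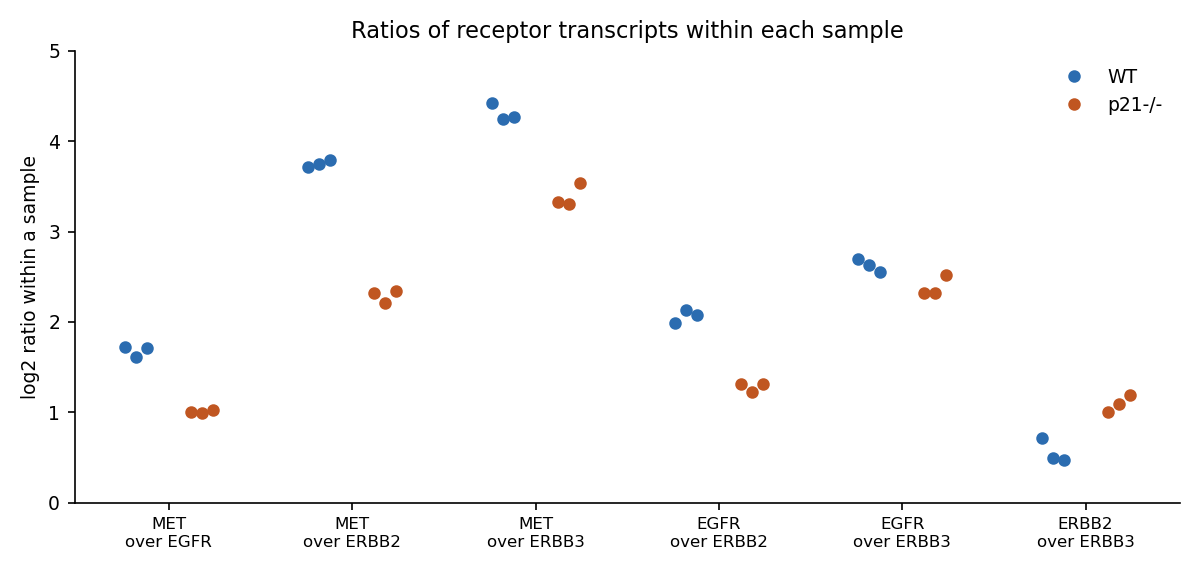
Log2 ratio of each pair of receptor transcripts within each sample, WT in blue and p21-/- in orange, 3 points per line. MET over ERBB2 shows the widest separation, with mean log2 ratios of 3.75 and 2.29, and EGFR over ERBB3 the narrowest, with 2.63 and 2.39.

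Amphiregulin and epiregulin, both ligands of EGFR, fell in p21-/- cells. The panel held 3 of 11 listed EGFR family ligands, and of these 2 passed as lower and none as higher in p21-/- cells, where 26% and 21.8% of the panel did. Amphiregulin (AREG) had 11001, 22716 and 17103 normalized counts in WT against 3587, 2794 and 3082 in p21-/- cells. The WT samples spread over a wide range, and the lowest of them was still above all p21-/- samples. The log2 fold change of AREG was -2.37 (SE 0.182, limma adjusted p = 1.59e-08), a 5.17-fold lower level. Epiregulin (EREG), a ligand of EGFR and of ERBB4, had 15189, 23107 and 21418 normalized counts in WT against 5089.8, 4260.5 and 4620.4 in p21-/- cells. Its log2 fold change was -2.08 (SE 0.129, limma adjusted p = 1.09e-09), a 4.22-fold lower level. EGF stood at the floor in each WT sample and at 38.8, 43.7 and 36.3 in p21-/- cells, so close to the floor that no fold is given (adjusted p = 0.163). EGF passed as higher with median scaling (adjusted p = 0.00746) and TMM (adjusted p = 0.0336), which move the floor of the lines too.

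Set against EGFR in the same sample, the AREG over EGFR ratio was 8.36 ± 2.42 (SD, n = 3) in WT and 2.77 ± 0.436 (SD, n = 3) in p21-/- cells, a 2.95-fold difference of geometric means. The EREG over EGFR ratio was 9.87 ± 1.36 (SD, n = 3) and 4.09 ± 0.484 (SD, n = 3), a 2.41-fold difference. In both cases each p21-/- sample was below each WT sample. These ratios were chosen after the values were seen and were not tested.

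The promoters of MET and EGFR, which fell most among the 4 selected receptors, and of the ligands AREG and EREG are shown because the repressors SNAI2 and ZEB1 are known to bind the E-box CAGGTG. The letters are the 250 bases before the RefSeq gene start in build GRCh38.p14, 5′ to 3′ on the plus strand, which is the strand of all 4 genes: MET at chr7:116671946-116672195, EGFR at chr7:55018767-55019016, AREG at chr4:74444886-74445135 and EREG at chr4:74364895-74365144. Capitals mark each CAGGTG and each GC box GGGCGG, on either strand.
MET: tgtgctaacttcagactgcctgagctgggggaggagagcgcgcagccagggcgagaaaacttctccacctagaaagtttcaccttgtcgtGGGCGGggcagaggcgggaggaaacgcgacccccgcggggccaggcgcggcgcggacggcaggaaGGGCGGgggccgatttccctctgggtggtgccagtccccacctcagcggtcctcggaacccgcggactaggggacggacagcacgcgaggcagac
EGFR: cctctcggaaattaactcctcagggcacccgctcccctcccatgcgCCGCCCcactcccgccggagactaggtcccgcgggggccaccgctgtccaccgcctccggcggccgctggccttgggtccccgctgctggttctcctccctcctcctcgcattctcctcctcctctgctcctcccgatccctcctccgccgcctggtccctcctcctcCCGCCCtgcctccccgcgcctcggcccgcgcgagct
AREG: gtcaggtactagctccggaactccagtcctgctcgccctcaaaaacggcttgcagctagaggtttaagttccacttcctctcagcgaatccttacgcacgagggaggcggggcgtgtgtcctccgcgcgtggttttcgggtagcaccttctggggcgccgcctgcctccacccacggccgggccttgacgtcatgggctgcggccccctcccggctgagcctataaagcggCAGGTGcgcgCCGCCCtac
EREG: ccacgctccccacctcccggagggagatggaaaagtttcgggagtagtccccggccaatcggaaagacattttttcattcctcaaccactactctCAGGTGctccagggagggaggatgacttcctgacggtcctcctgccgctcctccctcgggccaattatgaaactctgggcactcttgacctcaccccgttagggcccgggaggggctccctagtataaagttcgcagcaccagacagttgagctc

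AREG and EREG each held 1 E-box, starting 19 bases before the gene start in AREG and 155 bases before it in EREG. MET and EGFR held none in these windows, and neither did the windows of ERBB2 and HGF. For ERBB3 and ERBB2IP no promoter window was available, so they were not searched. Of 35116 RefSeq promoter windows of this length, 17.5% held the E-box. GC boxes were found at 2 places in MET, 2 in EGFR and 1 in AREG, and 42.6% of all windows held at least 1. GC content was 73.6% for EGFR, 68.4% for MET, 65.2% for AREG and 58% for EREG. It was 65.6% for ERBB2 and 50% for HGF, against a median of 58% over all windows. A match describes letters only and is no evidence of binding in these cells.

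Of 10 listed genes around HGF and its processing 5 were measured, with 1 higher and 2 lower in p21-/- cells, beside 21.8% and 26% of the panel. ST14, encoding matriptase, a membrane protease that can activate pro-HGF, fell from 3406 ± 309.9 (SD, n = 3) in WT to 1774 ± 34.7 (SD, n = 3) in p21-/- cells, and its log2 fold change was -0.94 (SE 0.0883, limma adjusted p = 1.88e-07). SPINT1, which encodes the inhibitor of HGF activator proteases, fell from 1984 ± 215 (SD, n = 3) in WT to 1334 ± 23.0 (SD, n = 3) in p21-/- cells, with a log2 fold change of -0.57 (adjusted p = 0.000106). PLAU, encoding urokinase, had 4347, 7954 and 6315 normalized counts in WT against 8910, 9163 and 10095 in p21-/- cells. Its log2 fold change of 0.64 (adjusted p = 0.00225 from limma) was 0.40 without WT replicate 1, and PLAU did not pass with quantile normalization (adjusted p = 0.0585), with the housekeeping candidates (adjusted p = 0.149) or in an unmoderated linear model (adjusted p = 0.141).

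Of 12 listed partners of MET at the membrane 8 were measured, and 4 were lower and 2 higher in p21-/- cells, beside 26% and 21.8% of the panel. CD44, whose variant forms act as co-receptors of MET, and ITGB4, an integrin chain that MET can use as a signalling platform, had log2 fold changes of -1.57 (adjusted p = 1.2e-09) and -1.24 (adjusted p = 2.51e-07). These are transcript levels, and the study's Western blots showed the opposite for CD44, with more protein in HCT116 p21-/- cells. ITGA6, the partner chain of ITGB4, had 4136 ± 355 (SD, n = 3) in WT and 4239 ± 20.1 (SD, n = 3) in p21-/- cells, and its log2 fold change of 0.04 (adjusted p = 0.715) became 0.25 with median scaling (adjusted p = 0.0096) and -0.35 with scaling to housekeeping candidates (adjusted p = 0.0012). CDH1, encoding E-cadherin, had the largest fall of the list at -3.23. ICAM1, an adhesion molecule, was at 84.4, 153 and 157 normalized counts in WT and at the floor in each sample without p21, at least 4.09-fold lower (adjusted p = 1.05e-06). The neuropilins rose, NRP1 by a log2 fold change of 3.26 and NRP2 by 1.66 (adjusted p = 1.75e-11 and 4.78e-06), with NRP2 at the floor in WT replicate 1. The median log2 fold change was -0.64 over the 6 partners above the floor in every sample, against -0.05 over the 446 genes of the panel that were. The 6 partners ran from -3.23 for CDH1 to 3.26 for NRP1, so this median does not stand for a common shift.

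The proteases that release ligands from the cell surface were lower in p21-/- cells in 3 of the 4 measured cases, against 26% of the panel, and the fourth, ADAM8, was at the floor in all 6 samples. ADAM17, the main sheddase of amphiregulin and epiregulin, had 1682, 2330 and 1904 normalized counts in WT against 1119.8, 1216 and 1218 in p21-/- cells, without overlap. Its log2 fold change was -0.72 (SE 0.111, limma adjusted p = 4.11e-05). ADAM15 and ADAM9 had log2 fold changes of -0.88 and -0.49 (adjusted p = 2.43e-06 and 0.000106). Of the negative regulators, 2 of 23 listed genes were measured, and CBLC, a ubiquitin ligase for EGFR, fell with a log2 fold change of -0.72 (adjusted p = 0.00163), which did not pass with quantile normalization (-0.38, adjusted p = 0.1) or in the unmoderated linear model (adjusted p = 0.0523).

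Downstream adaptors and kinases did not move one way. Of 26 measured genes 8 were higher, 10 lower and 8 not called, where 21.8% and 26% of the panel were higher and lower. Only 5 were higher without p21-/- replicate 1 and 5 without p21-/- replicate 2. The housekeeping candidates gave 3 higher and 17 lower genes, not counting 1 at the floor in all samples, and median scaling gave 11 and 6. The largest falls were those of PIK3CD, a catalytic subunit of PI3-kinase, at -1.67 (adjusted p = 5.82e-07) and of the RAS-related RRAS at -1.12 (adjusted p = 3.68e-06). PIK3CA, another catalytic subunit of PI3-kinase, rose from 348 ± 33.8 (SD, n = 3) in WT to 679 ± 43.2 (SD, n = 3) in p21-/- cells, and its log2 fold change was 0.97 (adjusted p = 4.35e-06). PLCG1, a phospholipase recruited by EGFR and MET, rose by 0.86 (adjusted p = 1.93e-06).

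Other receptor tyrosine kinases gave 5 lower and 1 higher call among 17 measured genes. On the whole panel, 26% of genes were lower and 21.8% higher. The remaining 11 of the list were not called, among them 6 at the floor in all samples. EPHA1 had the largest fall, from 451 ± 64.8 (SD, n = 3) in WT to 148 ± 11.1 (SD, n = 3) in p21-/- cells, and its log2 fold change was -1.60 (SE 0.149, limma adjusted p = 1.77e-07). DDR2 was low, at 51.2, 95.5 and 81.9 normalized counts in WT and 37.8, 39.1 and 39.8, near the floor, in p21-/- cells. FGFR3, DDR2 and FGFR2 had log2 fold changes of -0.97, -0.91 and -0.66, with adjusted p-values of at most 0.00163, but FGFR2 did not pass with quantile normalization (adjusted p = 0.104) nor DDR2 in the unmoderated linear model (adjusted p = 0.0622). The list had 3 lower genes with either of these settings, and 0 to 3 higher genes over the scalings. With the housekeeping candidates 10 genes were lower, not counting the 6 at the floor in all samples. PDGFRB stood at the floor in each WT sample and at 55.0, 43.7 and 52.2 normalized counts in p21-/- cells, which makes it at least 1.22-fold higher there (limma adjusted p = 0.00376, and 0.158 with the housekeeping candidates). Over all 7 lists together, 65 genes were measured, of which 12 were higher and 27 lower, beside 21.8% and 26% of the panel. The 49 of them above the floor in every sample had a median log2 fold change of -0.31, against -0.05 for the 446 genes of the panel.

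**Figure D4:**
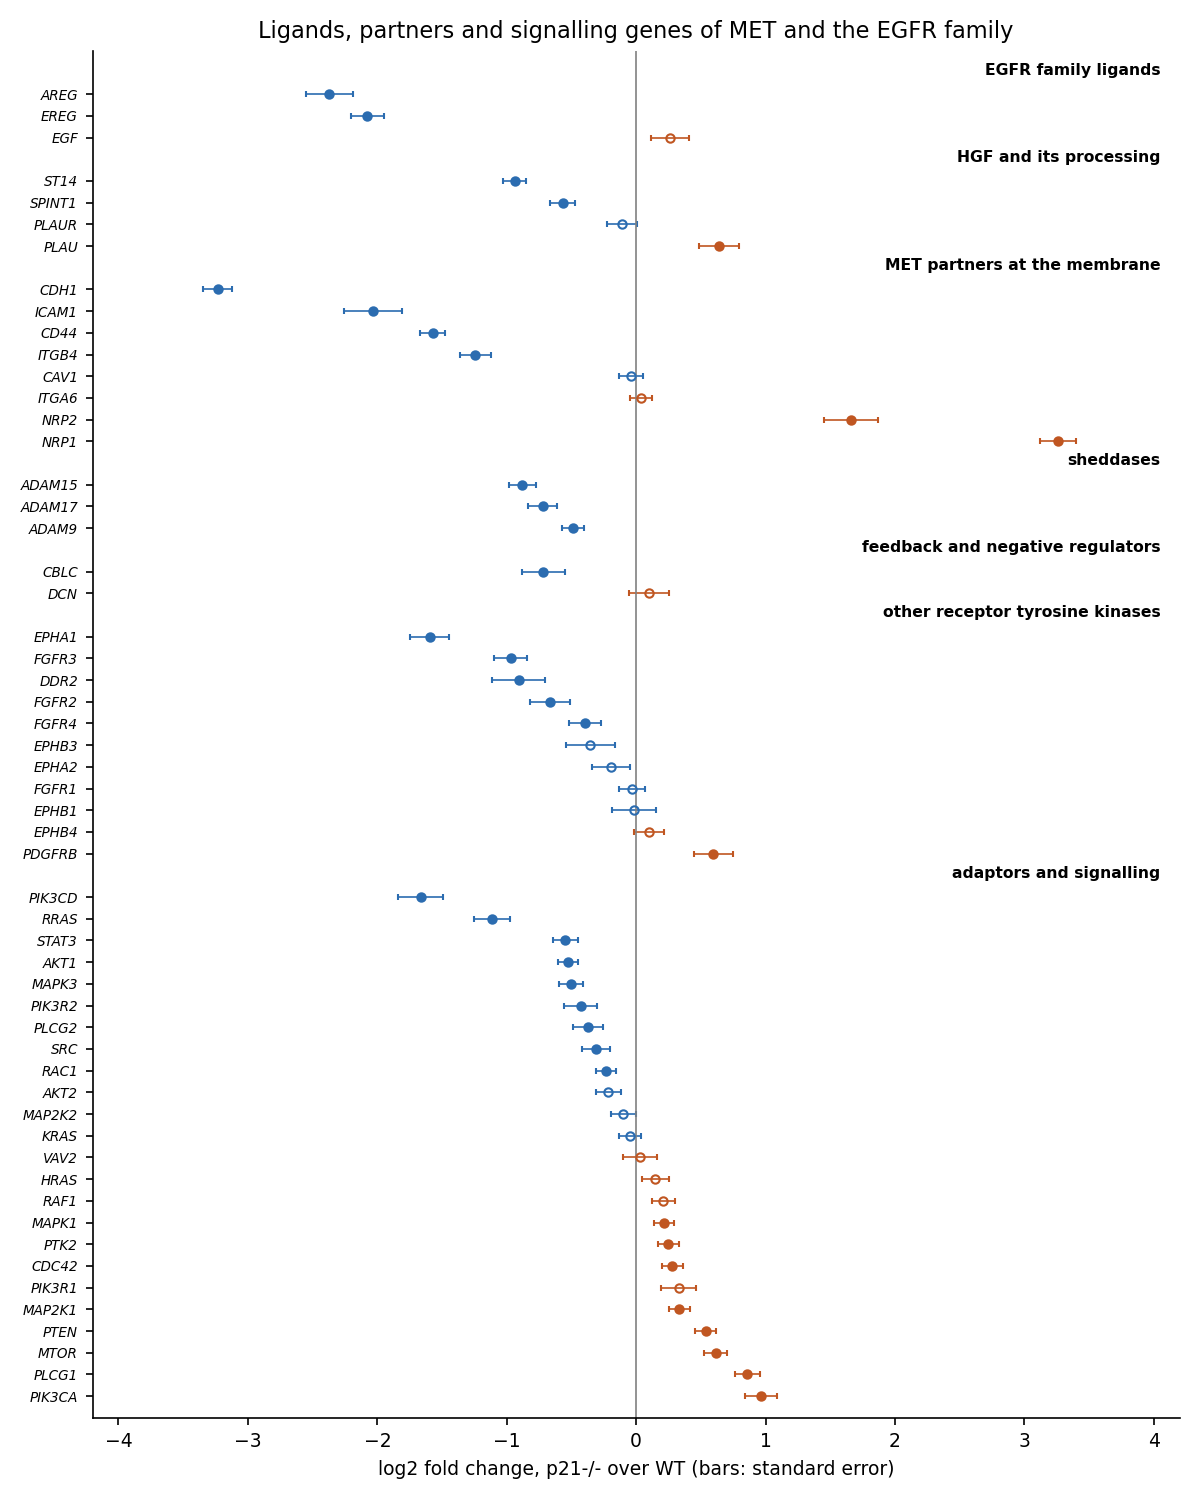
Log2 fold change, p21-/- over WT, with its standard error, for listed genes above the floor in at least 1 sample, grouped by role, with filled points past an adjusted p below 0.05 in limma and open points not past it. AREG and EREG lie at -2.37 and -2.08, and the adaptors and signalling genes lie on both sides of 0. EGF, ICAM1, PDGFRB, NRP2, DCN and EPHB1 hold floor values, so their plotted changes are limited by the floor.

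The genes whose profile was nearest to each receptor were found as those with the smallest root mean square difference of centred log2 values over the 6 samples, among 445 other genes over the floor in every sample. EIF4EBP1, an inhibitor of translation initiation, was nearest to MET at 0.0539, followed by B3GNT3 and EPAS1, a hypoxia-inducible factor, at 0.0744 and 0.079. AGK, TIMP1 and FXYD6 were nearest to EGFR at 0.0755, 0.078 and 0.0821. ERBB3 lay nearest to AKAP2, SPINT1 and FGFR2 at 0.0492, 0.0553 and 0.0576. ERBB2 lay nearest to NF2, FGFR1 and COG7 at 0.0609, 0.061 and 0.066, and ERBB2IP to NFAT5, CDS1 and ITGA2 at 0.0814, 0.0878 and 0.089. AGK and COG7 were among the 30 housekeeping candidates. The 6 samples come from 2 lines, so these distances are a description without a test.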

How the data were processed

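The authors measured RNA (100 ng per sample) from 3 WT and 3 p21-/- pellets of HCT116 on the NanoString PanCancer Progression Panel, and samples were assigned to lines and replicates from their labels. The deposited gene values are a signal, counts that the authors scaled in nSolver with positive controls and housekeeping genes, with low values set to a background floor, while control probes are raw counts. The study's own test, NanoStringDiff, takes raw counts, which were not used here. Of values over the floor but under 500, 100% were whole multiples of 1 factor per sample (0.885 to 1.51 normalized counts per barcode, tolerance 0.1 count). Floor values cannot be turned back into counts, so no count test was run. Positive controls had geometric means of 1601 to 1861 in WT and 1102 to 1261 in p21-/- samples, which cannot be told apart from the line.

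Values were compared with limma 3.58.1 in R 4.3.3 (log2(value + 1), lmFit, eBayes with an intensity trend, no filter, Benjamini-Hochberg over 770 genes, two-sided), checked on simulated data. A gene at the floor in 1 whole line got a bound, the geometric mean of the other line over that of the floor, or of the floor times the sample's factor where larger. Receptor ratios were compared by an exact permutation test. Named genes were all genes of the selection, all called ligands, HGF-related genes and MET partners, the 4 largest called changes of the other lists, genes at the floor in 1 line, the 3 nearest genes of each receptor and the epithelial markers, with ITGA6 added after its values were seen. The genes and lists were chosen with earlier results of these data known. Alternatives were other pseudocounts (10 and 0.5), a minimum mean of 20, 4 other scalings, limma without its intensity trend, an unmoderated linear model, a replicate block, and leaving out each sample. Of 39 housekeeping candidates from general knowledge, 30 were measured. As deposited, their geometric mean was higher in p21-/- than in WT samples, although the authors' scaling used housekeeping genes. Deviations of WT and p21-/- samples of equal number were unrelated (correlations of 0.0757, -0.0544 and 0.0524 over 446 genes). Promoter sequences are from RefSeq (GRCh38.p14). Protein sequences were not used here, and 1 listed gene that enters the counts is not reported here.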

Additional observations from a re-analysis of the deposited data

How the results depend on the processing

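Leaving out 1 sample at a time kept the log2 fold change between -1.54 and -1.43 for MET, -0.88 and -0.77 for EGFR, -1.08 and -0.91 for ERBB2IP and -0.67 and -0.49 for ERBB3. That of ERBB2 lay between -0.071 and 0.014, and was positive without WT replicate 3 (0.0088) and without p21-/- replicate 1 (0.014). MET, EGFR and ERBB2IP passed a limma adjusted p below 0.05 under all alternatives run, and ERBB3 under all but quantile normalization (-0.20, adjusted p = 0.101). ERBB2 had log2 fold changes of 0.19 with median scaling, 0.27 with quantile normalization, 0.079 with TMM and -0.41 with the housekeeping candidates, and passed in the second and the last. The housekeeping candidates gave 5 higher and 51 lower list genes in place of 12 and 27, and 626 called genes of the panel in place of 368. Without the genes at the floor in all samples, all of which it called lower, these were 5, 42 and 459. It turned EPCAM (-0.17), KRT7 (-0.051), CLDN3 (-0.13), MUC1 (-0.27) and ITGA6 (-0.35). By contrast, KRT7 and CLDN3 passed as higher with median scaling, quantile normalization and TMM. The fitted value of EGF, which has no measured direction since WT was at the floor, was -0.11 with the housekeeping candidates, 0.47 with median scaling and 0.37 with TMM, where it passed. Without single samples MUC1 ranged from -0.064 (no WT replicate 2) to 0.24, and ITGA6 from -0.0030 (no WT replicate 1) to 0.11. The replicate block, though equal numbers do not pair these samples, called 363 genes, left each receptor on its side of the threshold and ended the call of EPCAM (adjusted p = 0.0834). For the ratios it gave a p of 0.25 for each pair, the smallest it allows. Low genes are limited by the floor, and 3 samples per line limit all intervals.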
